A study of Mus musculus with 7 samples.

Results

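Expression of 8 keratin genes was followed on the 7 arrays of cultured mouse mammary glands, 4 of them the keratins of luminal cells (Krt7, Krt8, Krt18 and Krt19) and 4 the keratins of basal cells (Krt5, Krt14, Krt15 and Krt17). The 8 genes were fixed by name, and are 8 of the 13971 genes that could be named among the 34967 gene probes of each array. Each of the 8 is measured by exactly 1 probe. Glands of 4-week-old female mice were grown in organ culture for 10 days with insulin, prolactin, aldosterone and hydrocortisone, and then, in the 24-day cultures, kept for 14 days with insulin alone, so that the alveoli formed in the first phase regress in the second. RNA was measured on 1 array per group, which for the WT, αERKO and βERKO groups held RNA pooled from 5 mice in equal mass.

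The 3 groups of the main comparison were glands of αERKO mice (lacking estrogen receptor α, gene Esr1; background C57BL6/129SV), of βERKO mice (lacking estrogen receptor β, gene Esr2; background C57BL6/129SV) and of wild-type C57 mice (WT), all after 24 days of culture. The knockouts are germ-line mutants, so receptor loss is not restricted to the epithelium, and the WT mice differ from them in background as well as in genotype. The carcinogen DMBA is named in the title of the WT array alone, whereas the methods of the study give it to all 3 groups (2 µg/ml for 24 h on day 3). The methods list αERKO glands among those collected for arrays, yet also state that αERKO glands, being free of lesions, gave no sample. The discussion of the study describes the αERKO RNA as that of glands without preneoplastic lesions. It describes the WT and βERKO RNA as that of glands holding such lesions. In the αERKO comparisons, genotype and the presence of lesions therefore cannot be told apart. The labels and the methods also differ on the hormones given to the mice before culture: 1 µg estrogen with 1 mg progesterone for 9 days, or 25 ng EGF with 1 mg progesterone for 5 days. For the pooled WT, αERKO and βERKO glands on the arrays, the results of the study name EGF with progesterone. The other 4 arrays were C57 glands without DMBA after 10 days of culture (WT, 10 days), C57 glands without DMBA after 24 days (WT, 24 days), and glands of Balb/c mice cultured for 24 days without and with vitamin D5. The titles of the Balb/c arrays say nothing of DMBA and give no dose of the vitamin. The Esr2 probe was good on the array of βERKO glands (log2 value 0.87, the highest of the 7 arrays) and on WT, 24 days (-0.55), and not above background on the other 5, which goes against the label, so that array is called the array labelled βERKO. The Esr1 probe was not above background on the αERKO array, but it was good on 2 arrays alone (WT + DMBA and Balb/c + vitamin D5). The part of each gene that its probe covers is not known here, so neither probe settles the genotype.

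Keratins are the intermediate filament proteins of epithelial cells. A filament is built from pairs of 1 type I keratin (here Krt14, Krt15, Krt17, Krt18 and Krt19) and 1 type II keratin (here Krt5, Krt7 and Krt8), and a keratin left without a partner is degraded. In the mammary gland the luminal cells that line ducts and alveoli and secrete milk carry Krt8 and Krt18 with Krt7 and Krt19, and the basal layer, mostly contractile myoepithelial cells on the basement membrane, carries Krt5 and Krt14 with Krt17 and, in some cells, Krt15. In whole-gland RNA, fewer cells of a type and less RNA per cell cannot be told apart. With 1 array per group no difference below has a replicate check, no test was possible, and no p-value is given.

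The promoters of the classical partners are shown because Krt5 and Krt14 moved together over the arrays and Krt8 and Krt18 did so less. RefSeq sequences (build GRCm38.p6, 250 bases before to 50 bases after the annotated start, each written 5′ to 3′ on the strand of the gene) were found for 5 of the 8 genes: Krt5, Krt7, Krt8, Krt14 and Krt18. They were searched on both strands for 4 motifs: TATAAA, the core promoter hexamer (in 13.6% of the 32851 RefSeq promoters of this length), GGGCGG (GC box, in 35.7%), TGANTCA (AP-1 element, in 7.81%) and GCCNNNGGC (AP-2 element, in 16.6%). Capitals mark matches.
Krt5 (chr15:101712856-101713155, minus strand): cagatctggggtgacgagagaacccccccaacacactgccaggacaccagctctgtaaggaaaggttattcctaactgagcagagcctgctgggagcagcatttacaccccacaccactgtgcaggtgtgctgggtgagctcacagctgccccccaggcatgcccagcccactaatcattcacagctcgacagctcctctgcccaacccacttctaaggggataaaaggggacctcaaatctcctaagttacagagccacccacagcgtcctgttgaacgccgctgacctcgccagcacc
Krt14 (chr11:100205981-100206280, minus strand): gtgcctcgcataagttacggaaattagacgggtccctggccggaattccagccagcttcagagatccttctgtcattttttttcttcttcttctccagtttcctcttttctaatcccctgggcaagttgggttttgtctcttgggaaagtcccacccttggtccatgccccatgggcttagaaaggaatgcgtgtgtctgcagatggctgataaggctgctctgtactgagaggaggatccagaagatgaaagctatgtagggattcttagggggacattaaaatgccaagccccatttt
Krt8 (chr15:102004293-102004592, minus strand): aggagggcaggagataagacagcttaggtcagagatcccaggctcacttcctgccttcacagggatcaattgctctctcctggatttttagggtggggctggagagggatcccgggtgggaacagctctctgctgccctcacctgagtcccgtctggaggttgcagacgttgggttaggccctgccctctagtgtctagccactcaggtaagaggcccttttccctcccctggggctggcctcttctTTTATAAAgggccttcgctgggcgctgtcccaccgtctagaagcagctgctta
Krt18 (chr15:102027966-102028265, plus strand): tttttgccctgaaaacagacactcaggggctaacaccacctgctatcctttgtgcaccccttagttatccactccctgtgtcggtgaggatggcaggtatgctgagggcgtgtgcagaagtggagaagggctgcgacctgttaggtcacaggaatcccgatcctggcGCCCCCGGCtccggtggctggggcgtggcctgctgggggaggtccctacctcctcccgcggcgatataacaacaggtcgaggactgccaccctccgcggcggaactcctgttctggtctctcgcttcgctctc
The Krt5 and Krt14 windows held none of the 4 motifs. The Krt8 window held TATAAA on both strands, the matches overlapping and starting 3 bases and 1 base before the annotated start, and the Krt18 window held 1 AP-2 element, starting 83 bases before it. Krt8 and Krt18 are the exception to the rule that type I and type II keratin genes lie in separate clusters: both are on chromosome 15. The Krt7 window, not printed, held 4 GC boxes and 2 AP-2 elements. GC content was 57.7% for Krt5, 48.3% for Krt14, 58% for Krt8, 61.3% for Krt18 and 66.3% for Krt7, against a median of 52.7% over all promoters. A match is a description of the letters and not a binding site, and the absence of a match covers these 4 motifs in this window alone.

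Levels are given as log2 of the background-subtracted intensity over the median of the gene probes of the same array (log2 normalized intensity). A level can be compared for 1 probe between arrays, but not between probes. Of the 8 keratins, 7 were good (above background by the call of the scanning software) on all 7 arrays, and Krt15 on 5. The lowest value of a good probe lay between -1.88 and -1.47, depending on the array, and is used as the detection limit. This limit is approximate, as some probes above it were not called good, such as one at -1.02 on αERKO and one at -0.85 on Balb/c. Between 68.4% and 74.2% of gene probes were good on an array. The brightest keratin spot on an array reached 6594 to 24132 units, where the brightest gene probe reached 28714 to 47980.

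Among the type II keratins of luminal cells, Krt7 had a log2 normalized intensity of 7.01 on αERKO, 7.03 on the array labelled βERKO, 6.12 on WT + DMBA, 6.79 on WT, 10 days, 7.33 on WT, 24 days, 6.13 on Balb/c and 6.55 on Balb/c + vitamin D5. Krt7 was lowest on WT + DMBA and on Balb/c, which were 0.01 apart, and highest on WT, 24 days. Krt8, the main type II keratin of simple epithelia, had 2.96 on αERKO, 5.00 on the array labelled βERKO, 4.61 on WT + DMBA, 4.99 on WT, 10 days, 5.64 on WT, 24 days, 4.19 on Balb/c and 5.20 on Balb/c + vitamin D5. The αERKO array stood lowest for Krt8, 1.23 below the next array, and the array labelled βERKO and WT, 10 days, differed by 0.01.

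Among the type I keratins of luminal cells, Krt18, the partner of Krt8, had a log2 normalized intensity of 7.38 on αERKO, 8.12 on the array labelled βERKO, 7.42 on WT + DMBA, 8.48 on WT, 10 days, 8.59 on WT, 24 days, 8.55 on Balb/c and 8.57 on Balb/c + vitamin D5. The αERKO and WT + DMBA arrays were low for Krt18 and 0.04 apart, and the 4 arrays without DMBA in their titles and without a knockout lay between 8.48 and 8.59. Krt19, the smallest keratin, had 6.88 on αERKO, 6.83 on the array labelled βERKO, 6.68 on WT + DMBA, 6.76 on WT, 10 days, 6.88 on WT, 24 days, 6.40 on Balb/c and 7.04 on Balb/c + vitamin D5. Krt19 had the narrowest range of the 8 keratins, 0.65 on the log2 scale or 1.56-fold from the lowest to the highest array, and passed 2-fold in none of the 7 comparisons. Krt7 spanned 2.31-fold, Krt18 2.32-fold and Krt8 6.44-fold.

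Of the basal keratins, Krt5, the type II keratin of stratified basal layers, had a log2 normalized intensity of 5.16 on αERKO, 7.10 on the array labelled βERKO, 6.43 on WT + DMBA, 8.71 on WT, 10 days, 7.07 on WT, 24 days, 8.43 on Balb/c and 8.82 on Balb/c + vitamin D5. Krt14, its type I partner, had 2.77 on αERKO, 6.54 on the array labelled βERKO, 5.19 on WT + DMBA, 7.80 on WT, 10 days, 6.48 on WT, 24 days, 7.27 on Balb/c and 8.0 on Balb/c + vitamin D5. Krt17, a type I keratin of skin appendages and of injured or activated epithelium, had -1.0 on αERKO, 4.12 on the array labelled βERKO, 1.91 on WT + DMBA, 5.29 on WT, 10 days, 4.00 on WT, 24 days, 4.62 on Balb/c and 5.90 on Balb/c + vitamin D5. The 3 genes put the 7 arrays in the same order: αERKO lowest, then WT + DMBA, WT, 24 days, the array labelled βERKO, Balb/c, WT, 10 days, and Balb/c + vitamin D5 highest. WT, 24 days, and the array labelled βERKO were nearly equal neighbours, 0.03 apart for Krt5, 0.06 for Krt14 and 0.12 for Krt17. From the lowest to the highest array the signal spanned 12.6-fold for Krt5, 37.6-fold for Krt14 and 119-fold for Krt17. On αERKO the Krt17 probe was called good, but lay close to the detection limit of that array, -1.47.

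Krt15, a type I keratin of basal keratinocytes and hair follicles, was near the detection limit on every array. Its log2 normalized intensity was -1.0 on αERKO, -1.06 on WT + DMBA, -0.82 on WT, 10 days, -0.67 on Balb/c and -0.91 on Balb/c + vitamin D5. It was not above background on the array labelled βERKO (-1.36), and its signal was below the local background on WT, 24 days. In the comparisons with those 2 arrays Krt15 has a bound alone. The bounds, approximate as the detection limit is, lay between 1.23-fold and 1.93-fold. Medians of the basal keratins are therefore given with Krt15 and without it.

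**Figure D1:**
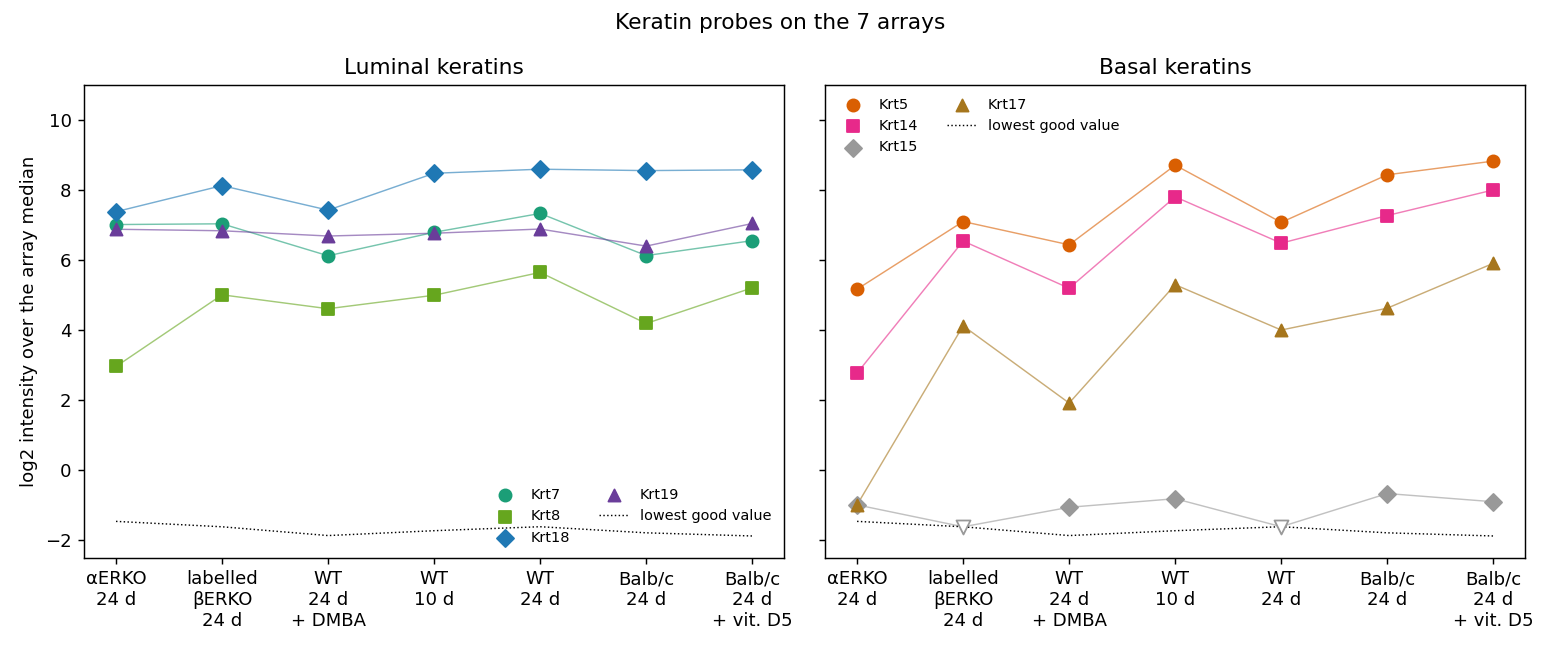
Log2 normalized intensity (y axis, log2 over the array median) of the 4 luminal keratins (left) and the 4 basal keratins (right) on the 7 arrays (x axis), 1 point per array, with lines joining the points of a gene. The dotted line is the lowest good value of each array, and open triangles stand for Krt15 at that limit. Krt5, Krt14 and Krt17 share 1 order of the arrays, from αERKO (5.16, 2.77 and -1.0) to Balb/c + vitamin D5 (8.82, 8.0 and 5.90), while Krt19 stays between 6.40 and 7.04.

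From the design 7 comparisons between arrays follow. A difference is a log2 ratio of normalized intensities, and 2-fold is the threshold that the methods of the study use. As a yardstick for the measurement itself, the log2 ratios of different probes for the same transcript were compared, and their SD is given for each comparison. It holds the spread between probes and leaves out that between mice, pools and cultures. The 7 comparisons share arrays: WT + DMBA and WT, 24 days, enter 3 each, and αERKO, the array labelled βERKO and Balb/c enter 2 each, so the comparisons are not independent of each other.

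**Figure D2:**
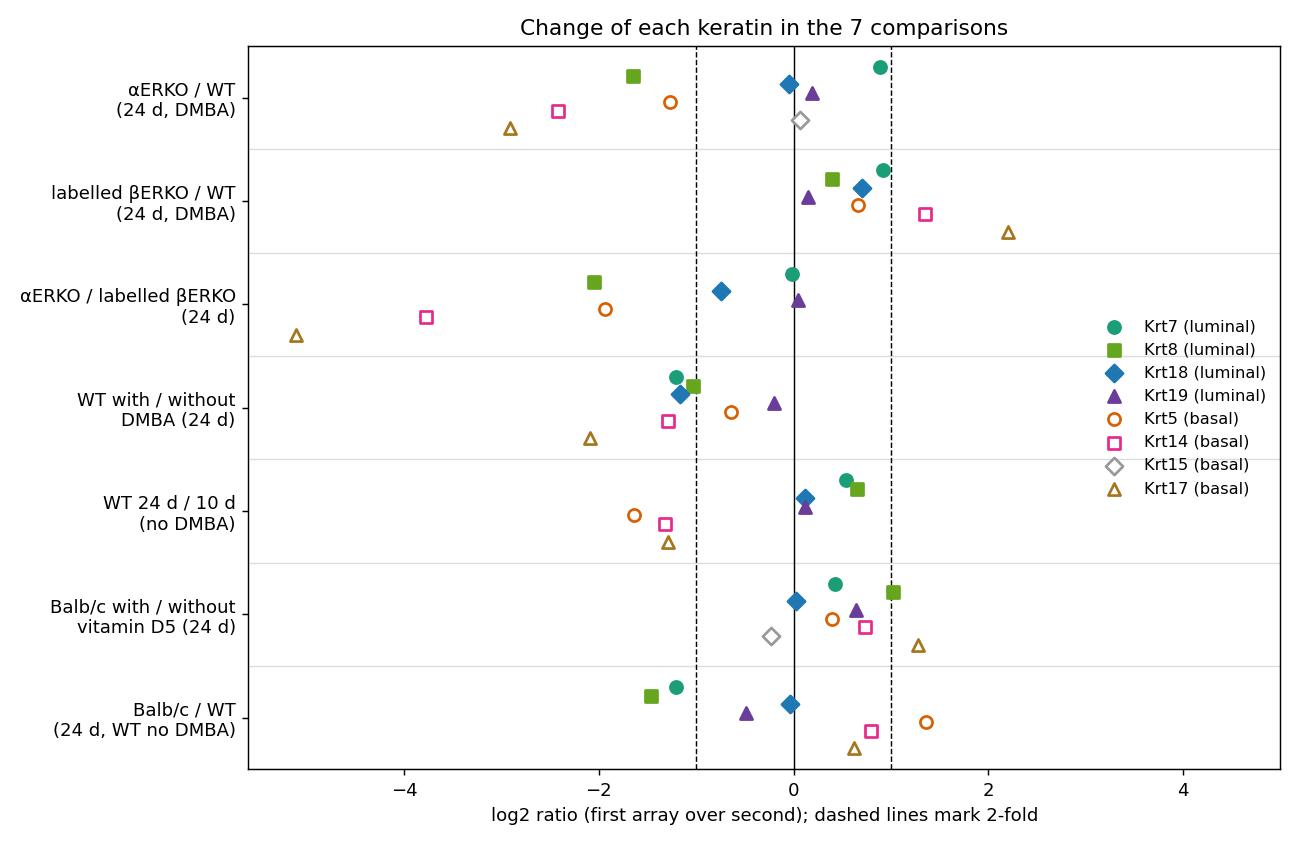
Log2 ratio (x axis) of each keratin in the 7 comparisons (y axis), with filled symbols for luminal and open symbols for basal keratins. Dashed lines mark 2-fold, and Krt15 is drawn only where it was good on both arrays. Krt5, Krt14 and Krt17 lie left of the lower line on αERKO against WT + DMBA (-1.27, -2.42 and -2.91) and on WT at 24 against 10 days (-1.64, -1.32 and -1.29), where the luminal keratins lie inside the lines, except Krt8 on αERKO (-1.65).

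The first comparison asked how glands without estrogen receptor α differ from WT glands. On αERKO the basal keratins were lower than on WT + DMBA, Krt5 by 2.41-fold, Krt14 by 5.37-fold and Krt17 by 7.50-fold (log2 ratios -1.27, -2.42 and -2.91). Of the luminal keratins, Krt8 was 3.14-fold lower (log2 ratio -1.65), whereas its partner Krt18 (-0.04), Krt19 (0.19) and Krt7 (0.89) were not past 2-fold, nor was Krt15 (0.07). So 4 of the 7 keratins that were good on all arrays were over 2-fold lower and 0 over 2-fold higher, where over all 27812 probes above background 14.1% were lower and 11.7% higher (25.8% in all). The median log2 ratio was 0.07 over the luminal keratins (-0.14 to 0.20 over the other ways of processing) and -1.85 over the basal keratins (-2.42 without Krt15), beside -0.09 over all probes. The SD between probes of the same transcript was 0.58 (623 probe pairs). With normexp background correction the log2 ratio of Krt17, which is near the detection limit on αERKO, was -1.58. In units of the SD between probes the log2 ratio as first given was -4.99 for Krt17, -4.16 for Krt14, -2.83 for Krt8 and -2.18 for Krt5.

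Other genes of the epithelium were lower on αERKO as well. Of the 10 epithelial genes listed (Epcam, Cdh1, claudins and others), 5 were over 2-fold lower and 0 higher, with a median log2 ratio of -1.06, and the summed normalized intensity of the list was 334 on αERKO and 638 on WT + DMBA. The log2 ratio less that median, a measure chosen after seeing the data, was 1.95 for Krt7, 1.25 for Krt19, 1.01 for Krt18, -0.21 for Krt5, -0.59 for Krt8, -1.37 for Krt14 and -1.85 for Krt17. Of the 14 measured genes of keratin attachment (desmosomes, hemidesmosomes and their linker proteins), 5 were lower and 0 higher, with a median of -0.61. Among them were Itgb4, the integrin chain of hemidesmosomes to which the filaments of basal cells are tied (-1.79), and Plec, plectin, which links filaments to it (-1.12), whereas Dst, another such linker, was at -0.67. Dsp, desmoplakin, could not be matched to a probe by name.

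Genes of some other cells differed as well. All 8 skeletal muscle genes listed were over 2-fold higher on αERKO, with a median log2 ratio of 8.12. Their summed normalized intensity was 2170 on αERKO, 51.5 on the array labelled βERKO and 8.32 to 10.7 on the other 5 arrays. The adipocyte list summed to 2936 on αERKO and 1738 on WT + DMBA, and the fibroblast list to 422 and 230. Gene by gene, 2 of 7 measured adipocyte genes were higher and 1 lower (median 0.35). In the fibroblast list 3 of 8 were higher and 0 lower (0.70). Squamous genes were higher for 4 of 7 measured and lower for 1 (median 1.11), Ly6d, a surface protein of keratinocytes, having a log2 normalized intensity of 7.31 on αERKO and 0.59 on WT + DMBA. Of the macrophage list 3 of 3 measured genes were lower (median -2.5), of the lymphocyte list 3 of 5 were higher (3.42), and of the endothelial list 3 of 5 were lower and 1 higher (-1.52). Their part in the keratin values was not tested. Of the basal and myoepithelial genes other than keratins, 3 of 8 were lower and 0 higher (median -0.79), Trp63, the master regulator of basal epithelium, being at -1.08. Of the 10 luminal genes other than keratins, 5 were lower and 1 higher, with a median of -1.17, beside 0.07 over the luminal keratins. Among them Elf5, a regulator of luminal progenitors and alveolar cells, had a log2 ratio of -2.81. Gata3 and Foxa1, also regulators of luminal cells, were at 0.13 and 0.03. Vim, the intermediate filament of mesenchymal cells, was at -0.64.

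The array labelled βERKO went the other way for the basal keratins. Against WT + DMBA, Krt17 was 4.61-fold and Krt14 2.54-fold higher (log2 ratios 2.21 and 1.35), and Krt5 was at 0.67. None of the 4 luminal keratins passed 2-fold, Krt7 at 0.91, Krt18 at 0.70, Krt8 at 0.40 and Krt19 at 0.15 (-0.12 to 0.15 over the other ways of processing). Over 2-fold higher were 2 of the 7 keratins, against 6.96% of 27469 probes (8.37% lower, 15.3% in all), and the SD between probes was 0.37. The median was 0.55 for the luminal keratins and 1.01 for the basal keratins (1.35 without Krt15), beside 0.09 over all probes. Of the basal genes other than keratins, 2 of 8 were over 2-fold lower and 0 higher (median -0.41); 1 of the 2, Myh11, had a spot that was not called good on this array. Of the squamous genes listed, 5 of the 7 measured were higher (median 3.15), among them Krt6a at 2.24. The epithelial list summed to 795 on this array and 638 on WT + DMBA. Of its 10 genes 1 was over 2-fold higher (Cldn4, 1.74) and 1 lower (Esrp1, -4.44), with a median of 0.31. Of the fibroblast list 5 of 8 genes were lower (median -1.08), of the endothelial list 5 of 5 (-1.46), of the macrophage list 2 of 3 (-1.86) and of the adipocyte list 2 of 7 (-0.67), while 6 of 6 measured skeletal muscle genes were higher (2.51). Their part was not tested.

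Set directly against each other, the αERKO array was below the array labelled βERKO by 34.6-fold for Krt17, 13.7-fold for Krt14 and 3.82-fold for Krt5, and by 4.13-fold for Krt8. The log2 ratios were -5.11, -3.77, -1.93 and -2.05, while Krt18 was at -0.75, Krt7 at -0.02 and Krt19 at 0.04. The value of Krt17 depended on the background correction, and was -3.38 with normexp. The background in this comparison was the highest of the 7, with 16.6% of 27026 probes over 2-fold lower and 13.5% higher (30.1% in all), and the SD between probes was 0.54. The median was -0.38 for the luminal keratins and -2.85 for the basal keratins (-3.77 without Krt15), beside -0.18 over all probes. Of the epithelial list 7 of 10 genes were lower (median -1.43), and of keratin attachment 6 of 14, Itgb4 at -2.78. Of the basal genes other than keratins 3 of 8 were lower and 1 higher (median -0.44), Trp63 being at -0.68. The higher one was Myh11, whose spot was not called good on the array labelled βERKO. The muscle list was again higher for 8 of 8 genes (median 6.87), the fibroblast list for 7 of 8 (2.11) and the lymphocyte list for 3 of 5 (2.70), and the squamous list was lower for 4 of 7 (-1.79). Their part was not tested.

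The second question was how DMBA-treated glands differ from untreated ones. On WT + DMBA, compared with WT, 24 days, keratins of both layers were lower: Krt7 by 2.31-fold, Krt18 by 2.25-fold, Krt8 by 2.05-fold, Krt14 by 2.44-fold and Krt17 by 4.25-fold. The log2 ratios were -1.21, -1.17, -1.04, -1.29 and -2.09, while Krt5 was at -0.64 and Krt19 at -0.20 (up to 0.097 over the other ways of processing). So 5 of the 7 keratins were over 2-fold lower and 0 higher, against 8.46% lower and 10.1% higher (18.6% in all) of 27808 probes, and the SD between probes was 0.31. The 3 luminal calls did not hold under every normalization: after quantile normalization Krt7, Krt8 and Krt18 stood at -0.95, -0.84 and -0.87. The median was -1.10 for the luminal keratins and -0.96 for the basal keratins (-1.29 without Krt15), beside -0.13 over all probes.

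Most other genes of the basal layer did not follow the basal keratins here. Of the 8 measured, 5 were over 2-fold higher on WT + DMBA and 0 lower, with a median log2 ratio of 1.84. Trp63 was at 0.58, whereas Cdh3 (-0.86) and Itga6 (-0.25) were below 0. Of the 5, smooth muscle actin (Acta2), Tagln, Cnn1 and Myh11 encode parts of the contractile apparatus, which vascular smooth muscle expresses too, and Sparc is also a gene of fibroblasts. Lists of stromal cells were higher: 7 of 8 fibroblast genes (median 3.01), 5 of 5 measured endothelial genes (2.30) and 5 of 7 adipocyte genes (1.70). The adipocyte list summed to 1738 with DMBA and 988 without. Squamous genes were lower, 5 of 7 measured (median -1.12), Krt6a at -1.84. Their part in the keratin values was not tested. Of the epithelial list 4 of 10 genes were lower and 0 higher (median -0.79), from a sum of 1284 without DMBA to 638 with it. Of keratin attachment 3 of 14 were lower (median -0.60), Itgb4 among them at -1.36.

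The third comparison set the end of the regression phase against the end of the growth phase. Between WT, 10 days, and WT, 24 days, both without DMBA, the keratins of the 2 layers parted. Krt5 was 3.11-fold, Krt14 2.50-fold and Krt17 2.45-fold lower after 24 days (log2 ratios -1.64, -1.32 and -1.29), and the luminal keratins were between 0.12 and 0.65, Krt8 at 0.65, Krt7 at 0.54, Krt18 at 0.12 and Krt19 at 0.12. After quantile normalization and cyclic loess Krt18 and Krt19 were just below 0. So 3 of the 7 keratins, all basal, were over 2-fold lower, against 6.34% of 27173 probes (6.05% higher, 12.4% in all). The SD between probes was 0.24, the lowest of the 7 comparisons. The median was 0.33 for the luminal keratins and -1.48 for the basal keratins (-1.32 without Krt15), beside 0.09 over all probes. None of the 10 epithelial genes passed 2-fold (median 0.01), and their sum was 1198 at 10 and 1284 at 24 days. Among the basal genes other than keratins 2 of 8 were higher and 1, Trp63, lower (-1.52). Adipocyte genes were higher after 24 days, 7 of 7 (median 2.60), with a sum of 295 at 10 and 988 at 24 days, 4 of the 8 measured squamous genes were lower (median -1.03), 3 of 5 endothelial genes were higher (1.27) and 3 of 6 fibroblast genes lower (-0.96). Their part was not tested.

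The fourth comparison asked how Balb/c glands with vitamin D5 differ from those without, and keratins of both layers were higher with it. Krt17 was 2.43-fold and Krt8 2.03-fold higher (log2 ratios 1.28 and 1.02), Krt14 was at 0.73, Krt19 at 0.65, Krt7 at 0.43, Krt5 at 0.39 and Krt18 at 0.02, and Krt15 at -0.23. So 2 of the 8 keratins, each good on both arrays, were over 2-fold higher, against 5.12% of 28418 probes (7.06% lower, 12.2% in all), and the SD between probes was 0.25. The call of Krt8 sat on the threshold and did not hold under 75th percentile scaling (0.89), quantile normalization (0.84) or cyclic loess (0.89). The median was 0.54 for the luminal keratins and 0.56 for the basal keratins (0.73 without Krt15), beside 0.09 over all probes. Squamous genes were higher for 5 of 9 measured and lower for 1 (median 1.00), Krt6a being at 1.95. All 15 genes of keratin attachment were above 0, with 2 past 2-fold (median 0.35), and 0 of the 10 epithelial genes passed it (median 0.33). Of the basal genes other than keratins 1 of 8 was lower and 0 higher (median -0.13). Of the fibroblast list 3 of 8 genes were higher (median 0.81). Their part was not tested.

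Balb/c glands, compared with C57 glands without DMBA (WT, 24 days), were over 2-fold higher for 1 basal keratin and over 2-fold lower for 2 luminal keratins. Krt5 was 2.57-fold higher (log2 ratio 1.36), with Krt14 at 0.79 and Krt17 at 0.62, while Krt8 was 2.75-fold and Krt7 2.30-fold lower (-1.46 and -1.20), with Krt19 at -0.49 and Krt18 at -0.04 (up to 0.28 over the other ways of processing). Of the 7 keratins 1 was over 2-fold higher and 2 lower, against 9.17% and 9.33% (18.5% in all) of 28069 probes, and the SD between probes was 0.33. Under 75th percentile scaling, quantile normalization and cyclic loess Krt7 came to between -0.99 and -0.86 and Krt14 to as much as 1.12. The median was -0.85 for the luminal keratins and 1.07 for the basal keratins (0.79 without Krt15), beside -0.15 over all probes. Strain and any DMBA given to the Balb/c glands cannot be told apart. Of the epithelial list 1 of 10 genes was lower and 0 higher (median -0.48). Genes of the 2 layers other than keratins changed little: 1 of 10 luminal genes was higher and 0 lower (-0.01). Of the basal genes 1 of 8 was higher and 0 lower (0.21). Adipocyte genes were over 2-fold lower in Balb/c, 7 of 7 (median -3.39), with sums of 257 against 988. So were 2 of 3 macrophage genes (-2.88), and Vim was at -2.62. Of 6 endothelial genes 3 were lower and 1 higher (-0.87), and of 7 measured fibroblast genes 2 were higher and 0 lower (0.94). Their part was not tested.

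Taking all 7 comparisons, 23 of the 49 log2 ratios of the 7 keratins good on all arrays passed 2-fold, where 12.2% to 30.1% of all probes did so in a comparison. Krt15, with a bound alone in most comparisons, is not counted. Krt17 passed in 6 comparisons, Krt8 and Krt14 in 5 each, Krt5 in 4, Krt7 in 2, Krt18 in 1 and Krt19 in 0.

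To set the layers side by side on each array, every gene was centred on its mean over the 7 arrays. The mean of the 4 luminal keratins then lay between -0.52 (αERKO) and 0.54 (WT, 24 days), and that of Krt5, Krt14 and Krt17 between -3.43 (αERKO) and 1.83 (Balb/c + vitamin D5). Basal less luminal was -2.91 on αERKO, 0.00 on the array labelled βERKO, -0.86 on WT + DMBA, 1.34 on WT, 10 days, -0.43 on WT, 24 days, 1.29 on Balb/c and 1.57 on Balb/c + vitamin D5. The difference was thus above 0 by over 1 log2 unit on WT, 10 days, and both Balb/c arrays, and below 0 on αERKO and both WT arrays of 24 days. A value of 0 stands for the mean over the 7 arrays, αERKO included, so sign and size depend on the arrays in that mean. Without Krt15, which was near background, these values rest on 3 basal probes.

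**Figure D3:**
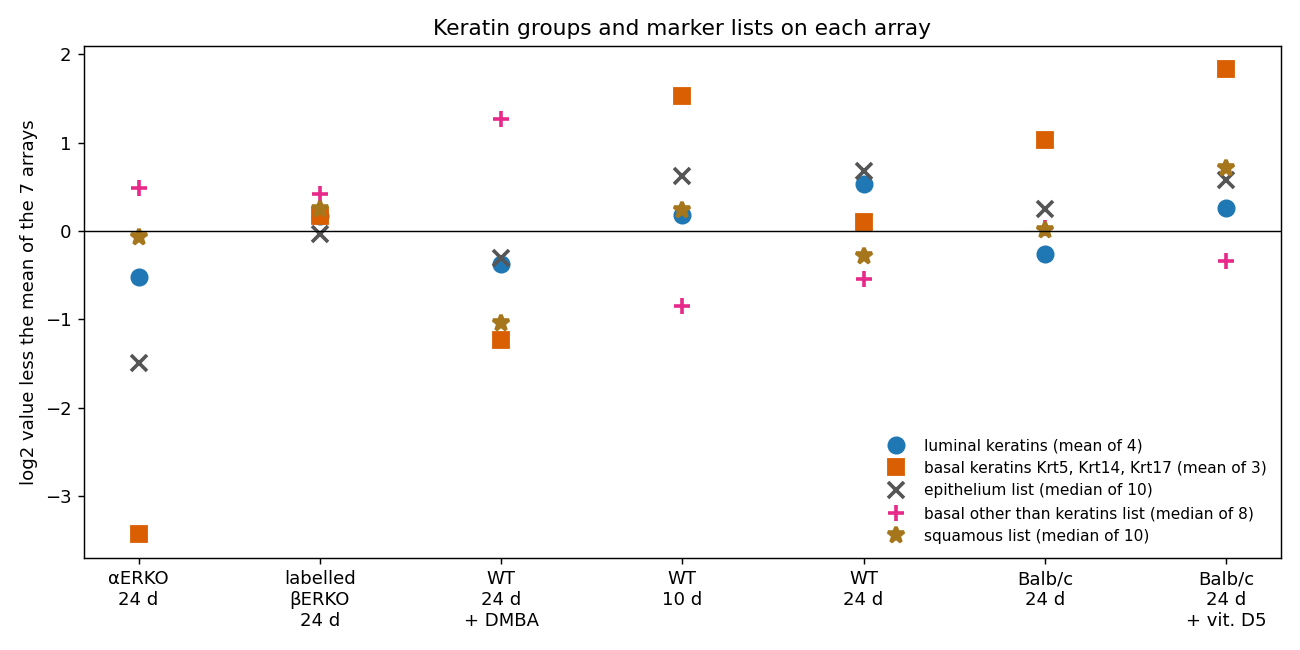
Log2 value less the mean over the 7 arrays (y axis) for each array (x axis): the mean of the 4 luminal keratins, the mean of Krt5, Krt14 and Krt17, and the medians of the epithelial, basal (other than keratin) and squamous gene lists. On WT + DMBA the basal keratins are at -1.23 and the other basal genes at 1.26, and on αERKO the basal keratins are at -3.43 and the epithelial list at -1.49.

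Krt5, Krt14 and Krt17 moved together over the arrays. Over the 7 arrays, which share platform and scaling, Pearson's r was 0.996 for Krt14 with Krt17, 0.965 for Krt5 with Krt14 and 0.948 for Krt5 with Krt17, and 0.987, 0.962 and 0.910 over the 6 arrays other than αERKO. These values are descriptions over 7 points. For the luminal keratins the median r was 0.223 over their 6 pairs (range -0.015 to 0.674). The partners Krt8 and Krt18 gave the highest of these, 0.674, which was 0.328 without αERKO, while Krt7 and Krt8 gave 0.186 with and 0.864 without αERKO. Krt18 had a higher r to each of these basal keratins than to any luminal one, 0.850 to Krt5, 0.878 to Krt14 and 0.893 to Krt17, but by rank it was nearer to Krt8 (Spearman's rho of 0.75, against 0.607 to each of the 3). The basal pairs also kept step in size less well than in order: on αERKO against the array labelled βERKO the log2 ratio of Krt17 was 1.34 below that of Krt14, and that of Krt14 1.84 below that of Krt5.

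**Figure D4:**
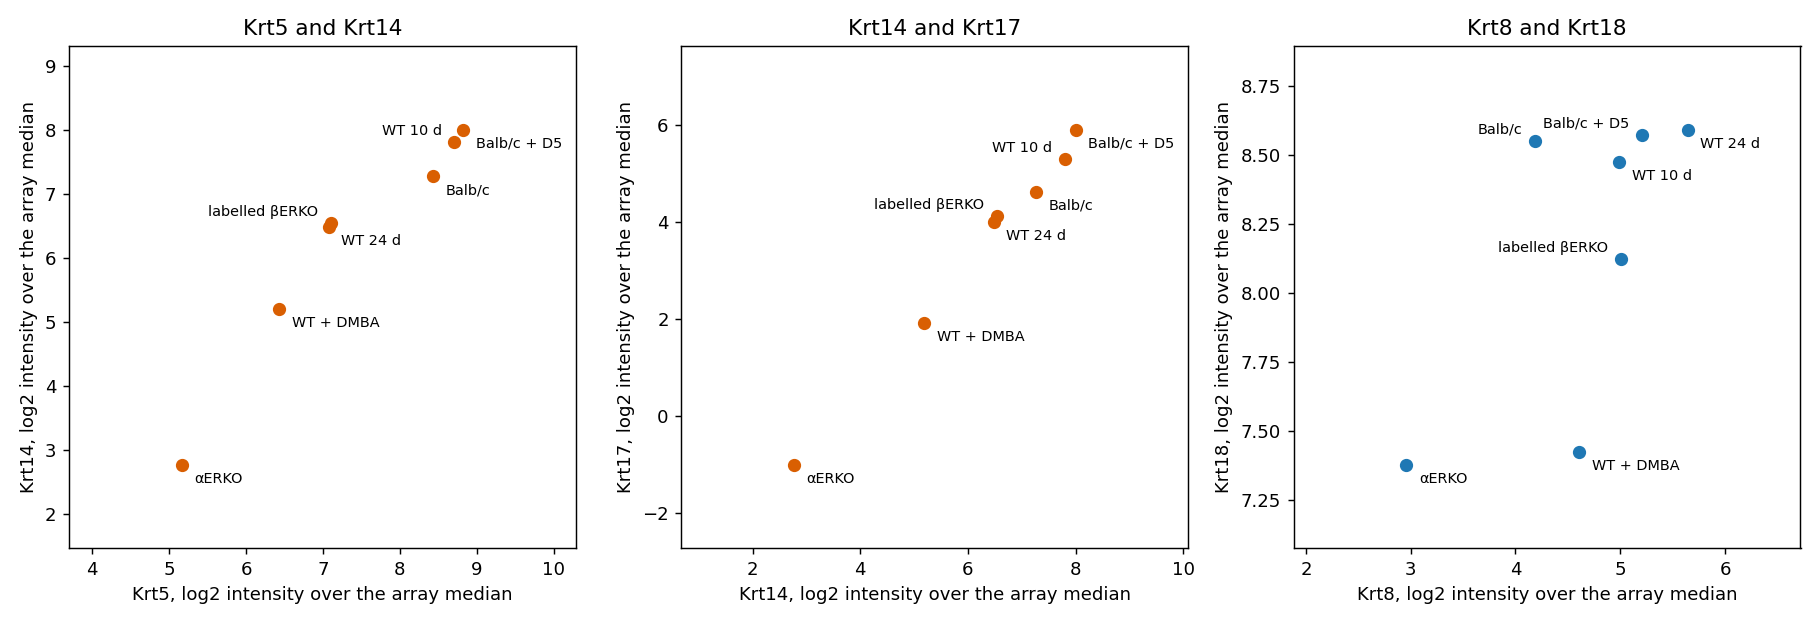
Log2 normalized intensity of 1 keratin against that of another on the 7 arrays: Krt5 and Krt14 (left), Krt14 and Krt17 (middle) and Krt8 and Krt18 (right). Each point is 1 array. The basal pairs lie near a line from αERKO to Balb/c + vitamin D5, with Pearson's r of 0.965 and 0.996, whereas Balb/c and αERKO have low Krt8 (4.19 and 2.96) with Krt18 at 8.55 and 7.38.

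Genes of like pattern were taken from the 9315 named genes outside the keratin family that were good on all 7 arrays. The 5 closest to the mean profile of the luminal keratins were Ints10 (r of 0.988), Tmem185b (0.987), Lsm8 (0.986), Anks3 (0.985) and Sap30bp (0.983). The 4 closest to the mean profile of Krt5, Krt14 and Krt17 were Rnf41 (0.994), Slc25a13 (0.994), Irgq (0.992) and Defb14, a defensin of epithelia (0.991). With 7 arrays such values are common: 583 of the candidates (6.26%) had an r over 0.9 to the luminal and 493 (5.29%) to the basal profile. Among these 4 genes the span over the arrays was widest for Defb14, 3.41 on the log2 scale. All 4 were lowest on αERKO, as was the basal profile by which they were picked, so this is no separate result.

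The arrays hold 29 other keratins. Krt6a, a type II keratin induced in injured epidermis, had a log2 normalized intensity of 1.87 on αERKO, 3.88 on the array labelled βERKO, 1.64 on WT + DMBA, 4.89 on WT, 10 days, 3.48 on WT, 24 days, 3.45 on Balb/c and 5.41 on Balb/c + vitamin D5. Its type I partner Krt16 had 2.65, 4.46, 2.19, 6.23, 3.15, 5.03 and 6.82 on the arrays in that order. Both were lowest on WT + DMBA and highest on Balb/c + vitamin D5, and αERKO, the lowest array for Krt17, differed from WT + DMBA by log2 ratios of 0.24 and 0.46, neither past 2-fold. Krt1, a keratin of differentiated epidermis, was good on 4 arrays, at 0.67 on WT, 10 days, -1.02 on WT, 24 days, -0.20 on Balb/c and 1.18 on Balb/c + vitamin D5. Its usual partner Krt10 was good on WT, 10 days (-1.36) and Balb/c + vitamin D5 (-0.34) alone, as was Krt6b (-0.37 and -0.02), and Krt13 on Balb/c alone (-1.28). The simple and mucosal keratins Krt4 (1.66 to 2.48) and Krt20 (0.01 to 1.02) varied less, and Krt23 ran from 1.56 on αERKO to 3.24 on WT, 10 days.

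**Figure D5:**
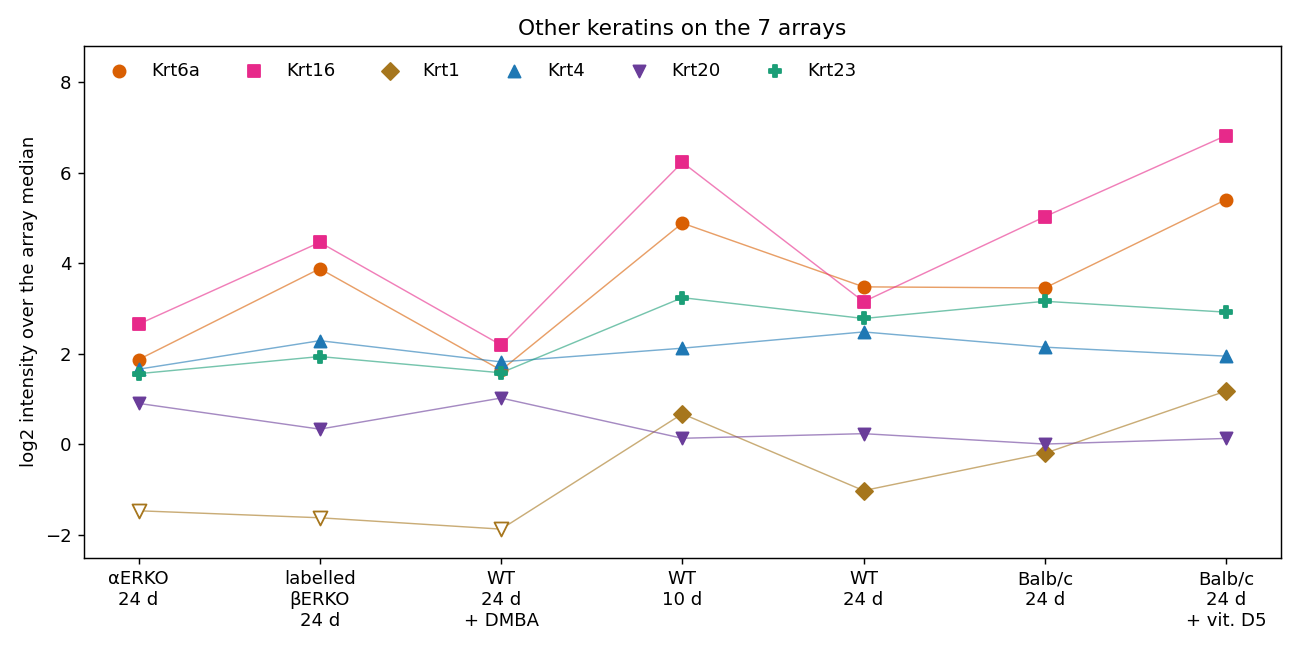
Log2 normalized intensity (y axis) of 6 other keratins on the 7 arrays (x axis), 1 point per array. Open triangles stand for Krt1 at the detection limit, where its probe was not good. Krt6a and Krt16 are highest on WT, 10 days (4.89 and 6.23) and Balb/c + vitamin D5 (5.41 and 6.82), while Krt4 stays between 1.66 and 2.48.

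The other keratins were also counted as a list, and are set here against the share of all probes past 2-fold in the same comparison. On αERKO against WT + DMBA 5 of the 22 measured were over 2-fold higher and 0 lower (median 0.13; 25.8% of all probes), a share near that of all probes. On the array labelled βERKO 6 of 23 were higher and 2 lower (0.47; 15.3%), and on αERKO against that array 5 were higher and 6 lower of 23 (-0.37; 30.1%). With DMBA against without 2 of 22 were higher and 4 lower (-0.44; 18.6%). At 24 against 10 days 5 of 22 were lower and 0 higher (-0.03; 12.4%), with vitamin D5 7 of 24 were higher and 2 lower (0.02; 12.2%), and on Balb/c against WT 4 of 21 were higher and 1 lower (-0.17; 18.5%). The 10 luminal genes other than keratins were counted in the same way. On the array labelled βERKO against WT + DMBA 2 were lower and 0 higher (median 0.13, 15.3% of all probes). On αERKO against that array 4 were lower and 0 higher (-0.77, 30.1%). With DMBA 1 was higher and 0 lower (0.06, 18.6%), and at 24 against 10 days 1 lower and 0 higher (-0.15, 12.4%). With vitamin D5 2 were higher and 0 lower (0.31, 12.2%), and on Balb/c against WT 1 higher and 0 lower (-0.01, 18.5%). The counts of 1 in 10 were below the share of all probes. Of the attachment genes, Itgb4 had 1.16 on αERKO, 3.94 on the array labelled βERKO, 2.95 on WT + DMBA, 4.81 on WT, 10 days, 4.31 on WT, 24 days, 4.51 on Balb/c and 4.79 on Balb/c + vitamin D5. It was lowest on αERKO and next on WT + DMBA, as the basal keratins were. Plec ranged from 2.73 on αERKO to 3.86 on WT + DMBA, and Dst from 0.01 on Balb/c to 1.60 on the array labelled βERKO. Trp63 had 2.40 on αERKO, 3.08 on the array labelled βERKO, 3.48 on WT + DMBA, 4.42 on WT, 10 days, 2.90 on WT, 24 days, 4.03 on Balb/c and 4.66 on Balb/c + vitamin D5. Like the basal keratins it was highest on Balb/c + vitamin D5, followed by WT, 10 days, and lowest on αERKO, but WT + DMBA stood above WT, 24 days. Elf5 ranged from 1.88 on αERKO to 6.01 on Balb/c + vitamin D5, whereas Gata3 (4.77 to 5.05) and Foxa1 (2.15 to 2.33) hardly varied.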

How the data were processed

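RNA of cultured mouse mammary glands had been hybridized by the authors to 7 CodeLink Mouse Whole Genome arrays of 1 colour, 1 per group, and scanned. In the deposited files a spot's intensity is the mean of its pixels minus the median around it, and the CodeLink software adds a call on its quality. The authors worked on these values in GeneSpring GX 7.3. Arrays were not replicated, and their number limits the precision. Groups were taken from the labels.

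Intensities were divided by the median of the 34967 gene probes of their array, as in the methods of the study, with values of 0 or less set to the lowest positive value of the array, and log2 was taken (Python 3.11.15, numpy 2.4.6, pandas 2.3.3). Probes were named through their RefSeq accessions: 14763 of the 15553 probes with an accession matched a gene, giving 13971 symbols. A probe entered a comparison if good on at least 1 of its 2 arrays, and a difference over 2-fold was counted. A gene with several probes was given by its brightest. No test was possible. The script was tested on simulated data. Alternatives were 75th percentile scaling, quantile normalization and cyclic loess (limma 3.58.1, R 4.3.3), normexp with an offset of 50, the normalized intensity that the authors deposited, a floor at the detection limit, the mean of the probes of a gene, probes good on both arrays, folds of 1.5 and 3, and, added after seeing the data, leaving out Krt15.

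All 8 keratins were named, with the 5 genes of closest profile to each layer (1 of the basal 5 is not reported here), 9 other keratins by rule (those under the closing observations were chosen after their values were seen), 4 attachment genes, 4 lineage regulators, Vim, Esr1 and Esr2. The members and all gene lists were chosen with earlier results of these data known. The deposited table of the whole series was not used, as its rows name no probe.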

Additional observations from a re-analysis of the deposited data

How the results depend on the processing

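Each of the 23 log2 ratios over 2-fold, Krt15 left out, kept its sign under every alternative run and 18 stayed over 2-fold, and 112 of the 119 alternative medians moved by less than the SD between probes. For the knockout arrays, αERKO against that labelled βERKO, the basal median became -3.77 both with probes good on both arrays and without Krt15, and with DMBA against without it became -1.29 in both cases, since Krt15 left the median. On Balb/c against WT the luminal median was -0.51 after quantile normalization and -0.52 after cyclic loess, and the basal median 1.40 after cyclic loess; the cause was not tested. The median correlation of the luminal keratins was -0.044 after quantile normalization, -0.16 after cyclic loess and 0.50 without αERKO, and that of the basal keratins 0.54, or 0.96 without Krt15. Over the alternatives, folds of 1.5 and 3 included, the number of keratins past the threshold, Krt15 included, ran from 3 to 5 for αERKO against WT, 1 to 5 for the array labelled βERKO against WT, 4 to 5 between the knockout arrays, 2 to 7 for DMBA, 2 to 5 for 24 against 10 days, 0 to 4 for vitamin D5 and 1 to 6 for Balb/c against WT. With normexp Krt17 on αERKO came to -1.58 against WT and -3.38 against the array labelled βERKO. Krt7 on αERKO against WT passed 2-fold under 75th percentile scaling (1.02). That scaling moved the median of all probes by 0.13 for αERKO against WT, 0.18 between the knockout arrays (αERKO against that labelled βERKO), -0.13 for vitamin D5 and 0.22 for Balb/c against WT, where quantile normalization and cyclic loess moved it by 0.14; cyclic loess also moved it by 0.14 between the knockout arrays. The share of calls that were higher went from 44.9% to 55.8% between the knockout arrays and from 49.6% to 67.1% for Balb/c against WT under 75th percentile scaling, and with normexp to 36.4% for Balb/c against WT, from 42.0% to 61.8% for vitamin D5, from 54.5% to 70.3% for DMBA and from 48.8% to 37.7% for 24 against 10 days. The series table was not run, as its rows could not be matched to probes. No paired analysis was possible because each group has 1 array, and for the same reason no array could be left out of a comparison. Signal over background limits Krt15 on all arrays and Krt17 on αERKO.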

Other observations

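Some keratins of the hair follicle were high on the αERKO array; they were picked after their values were seen. Krt25, a type I keratin of the inner root sheath, had a log2 normalized intensity of 3.04 on αERKO, and -1.98 to -0.47 on the other 6 arrays. Krt73, a type II keratin of the same sheath, had 2.74 on αERKO and was good on 2 others alone, WT + DMBA (-0.60) and WT, 10 days (-1.06). Krt35, a keratin of the hair shaft, had 2.64 on αERKO and 0.59 to 1.21 elsewhere, and Krt33a, also of the hair shaft, had 0.39 on αERKO and was good on no other array. Krt27, a further keratin of the inner root sheath, had -0.31 on αERKO and was otherwise good on WT + DMBA alone (-1.11). Krt15, a keratin of the hair follicle as well, was no higher on αERKO (-1.0) than on Balb/c (-0.67). Krt79, for its brighter probe, went the other way, from 3.58 on αERKO to 6.17 on Balb/c. Other hair keratins were not higher there: Krt31 had 4.37 on αERKO and 3.84 to 4.90 on the other arrays, Krt34 0.45 and 0.16 to 0.65, Krt84 2.10 and 2.09 to 2.31, Krt75 -0.19 and -0.27 to 0.26, and Krt82 was not good on αERKO. Each value is that of 1 array.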
